A study of Mus musculus with 4 samples.

Results

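Tenascins, lecticans and the molecules that tie them together make up much of the matrix between brain cells, and 10 of their genes were followed in cultured mouse astrocytes that lack Cd38. The genes were the tenascins Tnc and Tnr, the lecticans Ncan, Bcan, Vcan and Acan, the link proteins Hapln1 and Hapln4, and the membrane proteoglycans Ptprz1 and Cspg5. They were found by symbol among the 55467 gene IDs of each library, and all 10 were present with 1 ID each. The groups were CD38 KO primary astrocytes (2 libraries) and WT primary astrocytes (2 libraries), grown from cerebral cortices of pups aged 1 to 3 days. All cells were kept in medium with 10% serum for 14 days, shaken for 12 h to remove loose cells, replated and harvested 5 days later. Neither group received a treatment, per the labels. The question is how transcripts of this matrix stand in astrocytes without Cd38, in a series on astrocyte CD38, the forming of synapses and social memory.

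In the brain, lecticans are chondroitin sulfate proteoglycans whose front ends bind the long sugar hyaluronan and whose back ends bind tenascins. Link proteins clamp lectican to hyaluronan, and tenascin-R joins several lecticans into a mesh. This mesh fills the space around synapses and is densest in perineuronal nets, the coats around certain neurons that are known for limiting plasticity. Astrocytes are a main source of neurocan, brevican and tenascin-C, while aggrecan and tenascin-R are best known from neurons and from cells of the oligodendrocyte lineage.

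Libraries held an estimated 29034000 and 29090000 fragments in CD38 KO, against 26849000 and 28253000 fragments in WT. Cd38 stood at 0.0222 FPKM in each CD38 KO library, against 3.13 and 3.45 FPKM in the WT libraries, so all 4 libraries carried the level that their labels name. FPKM is fragments scaled by transcript length and by library depth, so levels of different genes can be set side by side, though only roughly. The annotation release behind these lengths is not given. The labels give neither the mouse strains nor the deleted exons, and a strain difference cannot be told apart from the loss of Cd38. Whether libraries of a genotype stem from separate mice or dishes is not stated either, so the p-values here cover the spread between these libraries alone, which may be technical. Of the 10 genes, 9 passed the filter of a mean of at least 1 FPKM. Among all 13064 genes past it, 14.4% were called different between the genotypes, 8.0% higher and 6.35% lower in CD38 KO. A gene is called at an adjusted p under 0.05 in limma on log2(FPKM + 1).

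Tnr, Cspg5 and Ncan fell in CD38 KO and Vcan rose, while Tnc, Bcan, Hapln1, Hapln4 and Ptprz1 did not pass the test. These 4 calls are 44.4% of the 9 tested genes, beside 14.4% of all tested genes. The members and the lists below were chosen with earlier results of these data known. This share and those of the lists are therefore descriptions and not tests of the lists. The calls of Ncan and Vcan depended on the fit, as given below. The median log2 change of the 9 was -0.08, beside 0.00 over all tested genes. In 6 of the 9 genes the libraries of the genotypes did not overlap, as in 59.9% of all tested genes. Summed FPKM of all 10 genes was 403 and 423 in CD38 KO, against 479 and 479.5 in WT. The CD38 KO sums lay below both WT sums (413 ± 14.5 against 479 ± 0.302 FPKM, SD, n = 2 each). The exact permutation test, two-sided, gave p = 0.3333, which is the smallest that 2 libraries against 2 allow. In these bulk cultures fewer cells of a type and less RNA per cell cannot be told apart.

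**Figure D1:**
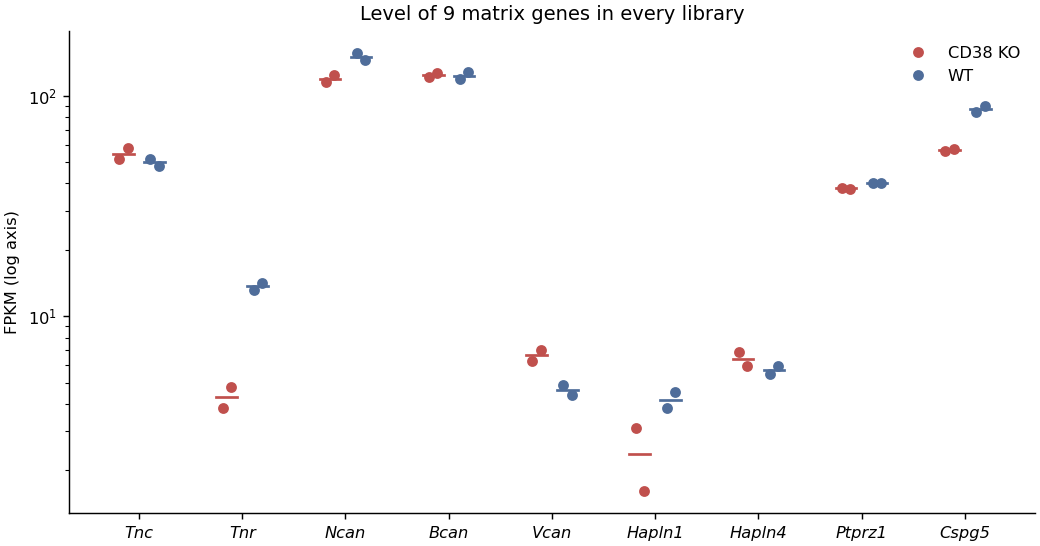
FPKM on a log axis of 9 matrix genes in CD38 KO (red, left of each pair) and WT libraries (blue); dots are libraries and lines are means of 2. Tnr stands apart most, at 3.85 and 4.78 FPKM in CD38 KO against 13.1 and 14.2 FPKM in WT. Acan is not drawn because it was at most 0.0207 FPKM.

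Tnr, which encodes tenascin-R (ENSMUSG00000015829, GRCm38 chromosome 1, 159523769 to 159931729, plus strand), showed the largest change of the 9. It had 3.85 and 4.78 FPKM in CD38 KO, against 13.1 and 14.2 FPKM in WT. Both CD38 KO libraries were low and both WT libraries high, with a gap between the genotypes wider than that within either. Tnr fell to 4.32 ± 0.657 FPKM in CD38 KO, against 13.6 ± 0.763 FPKM in WT (SD, n = 2 each), which is 3.16-fold lower. The log2 change was -1.47 (SE 0.11, limma adjusted p = 0.000891). Leaving out any of the 4 libraries kept the call, at log2 changes between -1.59 and -1.34.

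Tnc encodes tenascin-C, a relative of tenascin-R that is made by immature and reactive astrocytes. It lies on chromosome 4, 63959785 to 64047015, minus strand (ENSMUSG00000028364). It was at 51.4 and 57.9 FPKM in CD38 KO, against 51.9 and 47.9 FPKM in WT, and the genotypes overlapped. The log2 change of 0.13 (95% interval -0.06 to 0.31) was not called (limma adjusted p = 0.308). The noncoding gene 8030451A03Rik overlaps Tnc on the opposite strand at a mean of 0.527 FPKM.

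The balance of the tenascins can be read from their shares. Tnr made up 6.97% and 7.63% of the summed Tnc and Tnr FPKM in CD38 KO, against 20.2% and 22.8% in WT. The libraries did not overlap (7.30 ± 0.465% against 21.5 ± 1.88%, SD, n = 2 each, exact permutation p = 0.3333, two-sided). Tnc exceeded Tnr 13.4-fold and 12.1-fold in CD38 KO, against 3.96-fold and 3.38-fold in WT. The other tenascin genes were scarce. Tnn, which encodes tenascin-W, was at 0.140 and 0.201 FPKM in CD38 KO, against 0.468 and 0.363 FPKM in WT, and Tnxb was at most 0.106 FPKM in any library. Both were under the filter and were not tested.

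Cspg5, which encodes neuroglycan C, a membrane proteoglycan with an EGF-like module, was the second member in which all 4 fits without 1 library kept the call. Cspg5 (ENSMUSG00000032482, chromosome 9, 110243783 to 110262576, plus strand) had 56.0 and 57.1 FPKM in CD38 KO, against 84.7 and 89.5 FPKM in WT. The libraries of each genotype lay close together, at ratios of 1.02 in CD38 KO and 1.06 in WT, and the genotypes did not overlap. Cspg5 fell to 56.6 ± 0.777 FPKM in CD38 KO, against 87.1 ± 3.36 FPKM in WT (SD, n = 2 each), or 35.1% below WT. The log2 change was -0.61 (SE 0.048, limma adjusted p = 0.00117), and -0.65 to -0.57 without 1 library.

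Ptprz1 encodes a receptor-type tyrosine phosphatase whose outer part, also secreted as phosphacan, carries chondroitin sulfate and binds tenascins and the growth factors pleiotrophin and midkine. Ptprz1 (ENSMUSG00000068748, chromosome 6, 22875502 to 23052916, plus strand) was at 38.3 and 37.8 FPKM in CD38 KO, against 40.2 FPKM in each WT library. The genotypes did not overlap, but they differed by only 5.29% of the WT mean. The log2 change of -0.08 (95% interval -0.19 to 0.04) was not called (limma adjusted p = 0.316). The deposited values are per gene, so the 3 coding transcripts annotated for Ptprz1 cannot be told apart.

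Among the lecticans, Ncan fell, Vcan rose, Bcan was not called and Acan was close to absent. Ncan and Bcan were among the most abundant of the 13064 tested transcripts, within the top 4.49% and 4.99% by mean FPKM. Summed FPKM of the 4 lecticans was 243 and 258 in CD38 KO, against 280.0 and 277 in WT.

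Ncan encodes neurocan, the lectican of the developing brain. Ncan (ENSMUSG00000002341, chromosome 8, 70093085 to 70120873, minus strand) had 115 and 124 FPKM in CD38 KO, against 156 and 145 FPKM in WT. Both CD38 KO libraries lay below both WT libraries. Ncan fell to 119 ± 6.30 FPKM in CD38 KO, against 151 ± 7.97 FPKM in WT (SD, n = 2 each), or 21.0% below WT. The log2 change was -0.34 (SE 0.059, limma adjusted p = 0.0194). The call ended in each of the 4 fits without 1 library (adjusted p of 0.0622 to 0.131, log2 changes of -0.39 to -0.28).

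Vcan encodes versican, a large lectican of immature tissue that precursor cells, fibroblasts and reactive cells also make. Vcan (ENSMUSG00000021614, chromosome 13, 89655312 to 89742509, minus strand) had 6.26 and 7.03 FPKM in CD38 KO, against 4.88 and 4.41 FPKM in WT. Here both CD38 KO libraries were above both WT libraries. Vcan rose to 6.64 ± 0.545 FPKM in CD38 KO, against 4.65 ± 0.332 FPKM in WT (SD, n = 2 each), which is 1.43-fold higher. The log2 change was 0.44 (SE 0.093, limma adjusted p = 0.0351). This call also ended in each of the 4 fits without 1 library (adjusted p of 0.102 to 0.177) and under quantile normalization (0.0649). The annotation lists 8 coding transcripts of Vcan, which the values per gene do not separate.

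Bcan encodes brevican, the lectican of the mature brain and of perisynaptic matrix. Bcan (ENSMUSG00000004892, chromosome 3, 87987531 to 88000230, minus strand) was at 122 and 127 FPKM in CD38 KO, against 119 and 128 FPKM in WT, with full overlap. The log2 change of 0.02 had a 95% interval of -0.11 to 0.15 and was not called (limma adjusted p = 0.855).

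Acan encodes aggrecan, the lectican that marks perineuronal nets. Acan (ENSMUSG00000030607, chromosome 7, 79053483 to 79115099, plus strand) was at 0.0144 and 0 FPKM in CD38 KO, against 0.0207 and 0.0197 FPKM in WT. By the longest coding transcript these values stand for 3 and 0 fragments in CD38 KO and 4 fragments in each WT library. A count of 0 allows up to 3 fragments, so a difference was not detectable at this depth and no fold is given.

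The make-up of the lectican transcripts also differed between the libraries of the genotypes. Ncan made up 47.2% and 47.9% of lectican FPKM in CD38 KO, against 55.9% and 52.4% in WT. Bcan made up 50.2% and 49.3% in CD38 KO, against 42.4% and 46.0% in WT. Bcan was thus above Ncan in both CD38 KO libraries (Ncan over Bcan 0.940 and 0.971) and below it in both WT libraries (1.32 and 1.14). Vcan held 2.58% and 2.73% of the sum in CD38 KO, against 1.74% and 1.59% in WT. For each of the 3 shares the libraries of the genotypes did not overlap, at the smallest exact permutation p that the design allows (0.3333, two-sided). The libraries also did not overlap in 59.9% of all tested genes. The shares are parts of 1 sum, so a fall in 1 is met by a rise in others, and they are not 3 separate results. The level of Bcan itself was not called (log2 change 0.02, limma adjusted p = 0.855).

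**Figure D2:**
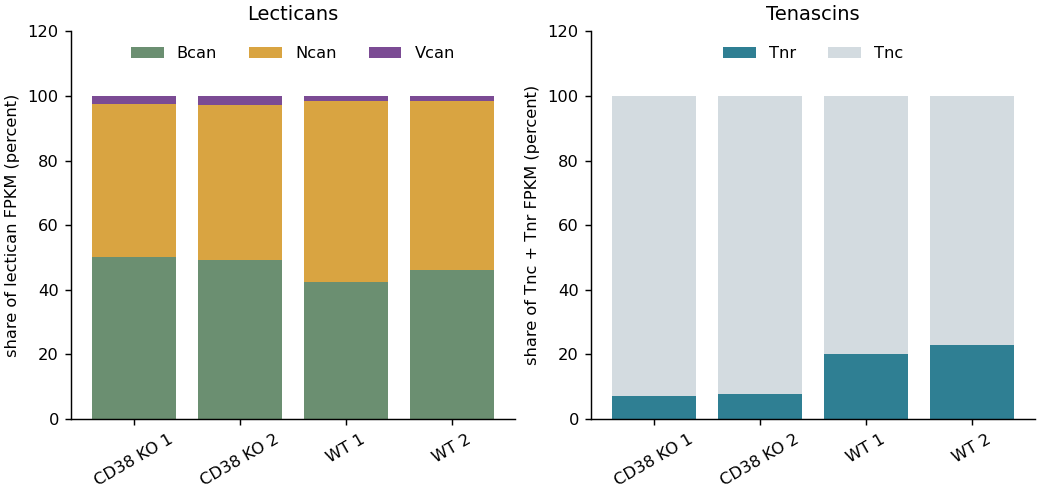
Left, share of each lectican in the summed lectican FPKM; right, share of Tnr and Tnc in their summed FPKM, in percent, for each CD38 KO and WT library. Ncan is at 47.2% and 47.9% in CD38 KO against 55.9% and 52.4% in WT, and Tnr at 6.97% and 7.63% against 20.2% and 22.8%. Acan, under 0.01% of the lectican sum, is not drawn.

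Link protein genes sit beside lectican genes in the mouse genome, and each of the 4 pairs was placed in these data. Hapln1 lies 43.7 kb from Vcan on chromosome 13, Hapln4 lies 2.22 kb from Ncan on chromosome 8, Hapln2 lies 21.5 kb from Bcan on chromosome 3, and Hapln3 lies 2 bases from Acan on chromosome 7. No coding gene lies between the partners of any pair. Bcan was at 119 to 128 FPKM over the 4 libraries while Hapln2 was listed at 0 in all 4. Acan was at most 0.0207 FPKM while Hapln3 was at 0.932 and 0.829 FPKM in CD38 KO, against 0.903 and 1.40 FPKM in WT.

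Hapln1 encodes cartilage link protein, which is needed for normal perineuronal nets. Hapln1 (ENSMUSG00000021613, chromosome 13, 89539796 to 89611652, plus strand) had 3.11 and 1.61 FPKM in CD38 KO, against 3.82 and 4.52 FPKM in WT. The CD38 KO libraries differed 1.93-fold from each other, more than any other tested member differed within a genotype, and both lay below WT. The log2 change of -0.65 (95% interval -1.21 to -0.10) was not called (limma adjusted p = 0.115), with values of -0.98 to -0.33 in the fits without 1 library. Beside it, the sum of the fibroblast and meningeal marker list was 85.3 and 59.6 FPKM in CD38 KO, against 54.3 and 64.9 FPKM in WT. Of 6 tested genes of that list 0 rose and 1, Ogn, fell, or 16.7% beside 14.4% of all tested genes. Within each genotype the library with the higher sum also had more Hapln1 and less Vcan, orders that 2 libraries cannot tell from chance. Between the genotypes the sums overlapped, with the highest in CD38 KO, while both CD38 KO libraries had less Hapln1 than either WT library. The part of such cells in the Hapln1 difference was not tested. Vcan over Hapln1 was 2.01 and 4.37 in CD38 KO, against 1.28 and 0.976 in WT.

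Hapln4 encodes the brain link protein Bral2. Hapln4 (ENSMUSG00000007594, chromosome 8, 70083457 to 70090862, plus strand) was at 6.89 and 5.96 FPKM in CD38 KO, against 5.47 and 5.96 FPKM in WT, and the genotypes overlapped. The log2 change of 0.14 (95% interval -0.10 to 0.38) was not called (limma adjusted p = 0.377). Ncan over Hapln4 was 16.7 and 20.7 in CD38 KO, against 28.6 and 24.3 in WT.

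Ordered by mean FPKM, the genes ran from Bcan (125), Ncan (119), Cspg5 (56.6), Tnc (54.7) and Ptprz1 (38.1) to Vcan (6.64), Hapln4 (6.42), Tnr (4.32), Hapln1 (2.36) and Acan in CD38 KO. In WT the order was Ncan (151), Bcan (123), Cspg5 (87.1), Tnc (49.9), Ptprz1 (40.2), Tnr (13.6), Hapln4 (5.72), Vcan (4.65), Hapln1 (4.17) and Acan. Neighbours whose libraries overlapped were Bcan with Ncan, Cspg5 with Tnc, and Vcan with Hapln4 in CD38 KO, and Vcan with Hapln1 in WT. Tnr thus stood the eighth of 10 in CD38 KO and the sixth in WT, without overlap with its neighbours in either.

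The promoters of the called members are shown so that their sequence can be set beside the changes. The RefSeq promoter table (GRCm38.p6) matched 8 of the 10 members, all but Hapln4 and Cspg5. Each run holds the 250 bases before the RefSeq start, 5′ to 3′ on the gene's strand, and capitals mark the motifs searched on both strands. The letters of the TATA box were TATAAA and those of the GC box GGGCGG. The CCAAT box was searched by its own letters. The AP-1 site was searched as TGANTCA. A site that nuclear factor I can bind was searched as TTGGCA.
Tnr, chr1:159523519-159523768, plus strand: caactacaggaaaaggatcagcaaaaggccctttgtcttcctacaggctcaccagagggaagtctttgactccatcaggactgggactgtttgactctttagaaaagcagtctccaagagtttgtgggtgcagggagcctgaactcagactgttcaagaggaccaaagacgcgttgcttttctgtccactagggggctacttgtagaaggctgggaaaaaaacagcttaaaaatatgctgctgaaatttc
Ncan, chr8:70120845-70121094, minus strand: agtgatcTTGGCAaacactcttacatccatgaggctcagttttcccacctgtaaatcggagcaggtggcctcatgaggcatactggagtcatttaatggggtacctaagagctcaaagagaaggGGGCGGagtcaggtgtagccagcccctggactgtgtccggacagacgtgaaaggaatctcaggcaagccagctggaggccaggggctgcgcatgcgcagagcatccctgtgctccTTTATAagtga
Vcan, chr13:89742513-89742762, minus strand: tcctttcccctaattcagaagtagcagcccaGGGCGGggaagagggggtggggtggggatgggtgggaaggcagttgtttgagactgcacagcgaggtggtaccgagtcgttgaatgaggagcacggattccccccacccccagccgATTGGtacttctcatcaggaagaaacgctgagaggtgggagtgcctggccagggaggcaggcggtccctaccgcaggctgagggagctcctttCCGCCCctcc
The Tnr window, at 46.8% G and C, holds no match to any of these letters. The Ncan window, at 54.4% G and C, holds TTGGCA at -243 to -238, a GC box at -126 to -121 and TATAAA on the opposite strand at -11 to -6, counted from the start. The Vcan window, at 62.4% G and C, holds a GC box at -219 to -214. On the opposite strand it holds a GC box at -10 to -5 and CCAAT at -103 to -99. Over all 32851 windows of the table, TATAAA occurs in 12.4%, the GC box in 32.7%, CCAAT in 33.8%, TGANTCA in 6.75% and TTGGCA in 12.3%. CCAAT and TTGGCA can overlap when they meet on opposite strands. A match describes letters only.

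Of the molecules that bind tenascins, lecticans and Ptprz1, more were called lower than higher. Of 23 tested members of this list 1 rose and 5 fell, or 26.1%, with a median log2 change of -0.14, beside 14.4% and 0.00 over all tested genes. Ptn and Mdk, which encode pleiotrophin and midkine, the growth factors that bind the phosphatase made by Ptprz1, both fell. Ptn had 107 and 118 FPKM in CD38 KO, against 171 and 169 FPKM in WT (log2 change -0.59, SE 0.057, limma adjusted p = 0.00266). Mdk had 34.9 and 32.4 FPKM in CD38 KO, against 49.6 and 47.8 FPKM in WT (log2 change -0.52, SE 0.056, limma adjusted p = 0.00377). Both calls were kept in all 4 fits without 1 library. Their summed FPKM was 3.70 and 3.98 times that of Ptprz1 in CD38 KO, against 5.49 and 5.39 times in WT.

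Cntn1, which encodes contactin-1, a binding partner of tenascin-R and of Ptprz1, was at 7.96 and 7.33 FPKM in CD38 KO, against 10.4 and 10.5 FPKM in WT (log2 change -0.41, limma adjusted p = 0.0184). Nfasc, the adhesion molecule neurofascin, was at 59.2 and 63.1 FPKM in CD38 KO, against 78.9 and 75.9 FPKM in WT (log2 change -0.34, limma adjusted p = 0.0127). The higher gene was Egfr, the EGF receptor, at 11.7 and 11.0 FPKM in CD38 KO, against 8.41 and 8.80 FPKM in WT (log2 change 0.36, limma adjusted p = 0.0237). Ptn and Mdk alone in this list were called in every fit without 1 library, and the calls of Cntn1, Nfasc and Egfr ended in each.

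**Figure D3:**
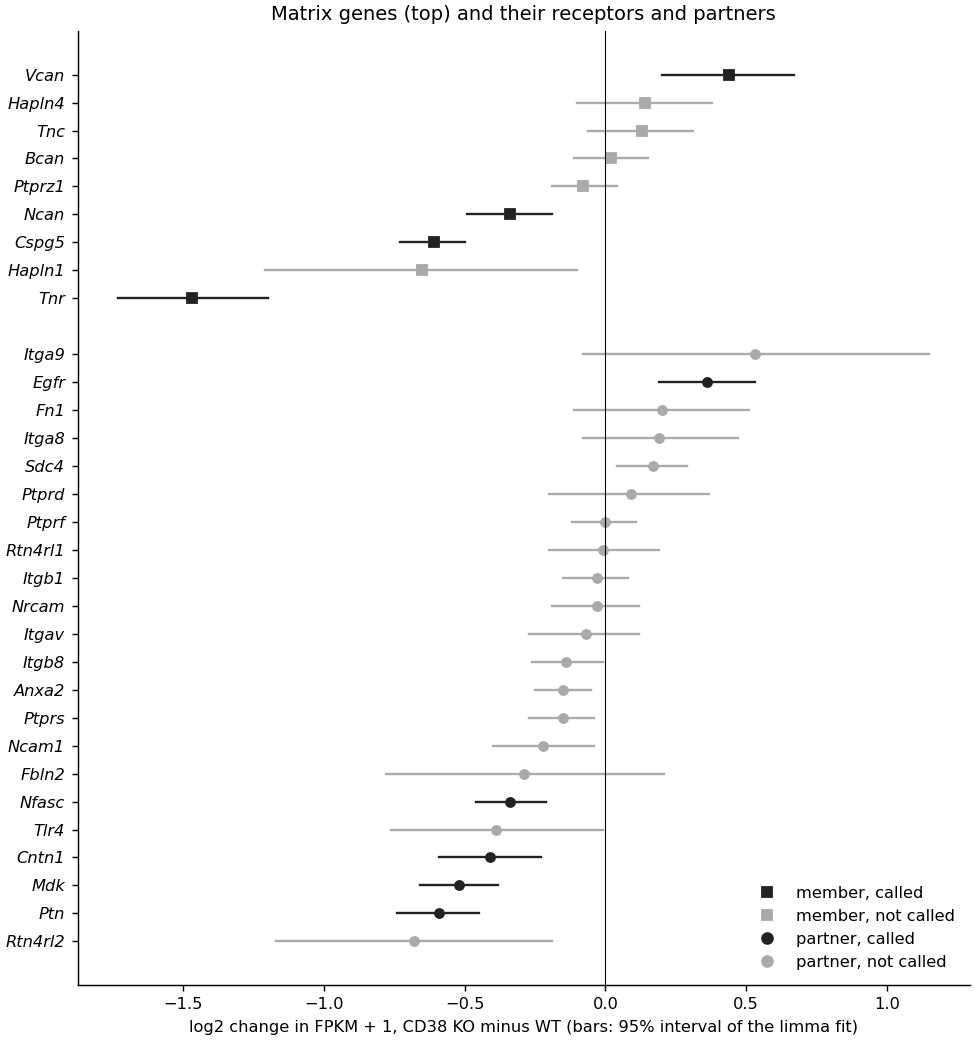
Log2 change in FPKM + 1, CD38 KO minus WT, of 9 matrix genes (squares, top) and 22 receptors and partners (circles), with 95% intervals of the limma fit and called genes in black. Tnr lies farthest to the left at -1.47, and Ptn and Mdk lie at -0.59 and -0.52.

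Of the receptors of chondroitin sulfate and their relatives in the list of receptors and partners, none that was tested was called. Ptprs, which encodes the phosphatase sigma that binds these sugar chains, was at 122 and 116 FPKM in CD38 KO, against 133 and 132 FPKM in WT (log2 change -0.15, limma adjusted p = 0.0781). Its relative Ptprf was at 101 and 99.2 FPKM in CD38 KO, against 103 and 97.8 FPKM in WT. Ptprd was at 3.38 and 3.10 FPKM in CD38 KO, against 2.71 and 3.30 FPKM in WT. Rtn4r, the Nogo receptor, was at most 0.02 FPKM and not tested. Its relative Rtn4rl2 was at 2.83 and 1.62 FPKM in CD38 KO, against 3.76 and 4.40 FPKM in WT (log2 change -0.68, limma adjusted p = 0.0784). Rtn4rl1 was at 6.13 and 6.70 FPKM in CD38 KO, against 6.39 and 6.49 FPKM in WT. These genes were chosen for their role after the values were seen.

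Enzymes that build and sulfate chondroitin chains were called in 1 of 24 tested members, or 4.17% beside 14.4% of all tested genes, with a median log2 change of 0.03. The called gene was Xylt2, a xylosyltransferase that starts the chain, at 12.2 and 11.6 FPKM in CD38 KO, against 9.93 and 8.99 FPKM in WT (log2 change 0.31, limma adjusted p = 0.0497). That call ended in each of the 4 fits without 1 library. At an unadjusted p under 0.05, 5 of the 24 differed.

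Genes of hyaluronan were called in 2 of 8 tested members, 1 in each direction, or 25.0% beside 14.4% of all tested genes. Hyal1, a lysosomal hyaluronidase, rose to 39.1 and 37.9 FPKM in CD38 KO, against 32.7 and 32.2 FPKM in WT (log2 change 0.24, limma adjusted p = 0.0279). Cd44, the main hyaluronan receptor, fell to 278 and 265 FPKM in CD38 KO, against 320.4 and 304 FPKM in WT (log2 change -0.20, limma adjusted p = 0.0472). Both calls ended in each of the 4 fits without 1 library. The hyaluronan synthases were scarce. Has2 was at 1.12 and 0.693 FPKM in CD38 KO, against 1.12 and 1.01 FPKM in WT, and Has1 and Has3 were at most 0.140 FPKM, all under the filter.

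Proteases that cut lecticans and tenascins, with their inhibitors, were called in 2 of 14 tested members, or 14.3%, a share near the 14.4% of all tested genes. Mmp9, the gelatinase MMP-9, which macrophages and microglia also make, rose to 2.27 FPKM in each CD38 KO library, against 0.210 and 0.400 FPKM in WT (log2 change 1.33, SE 0.14, limma adjusted p = 0.00395). Timp4, a tissue inhibitor of metalloproteases, fell to 9.92 and 12.7 FPKM in CD38 KO, against 19.2 and 17.7 FPKM in WT (log2 change -0.67, SE 0.12, limma adjusted p = 0.0196). The call of Mmp9 was kept in all 4 fits without 1 library, and that of Timp4 only without CD38 KO 2. Adamts4 and Adamts5, the aggrecanases that cut brevican and aggrecan, were not called. Adamts4 was at 0.954 and 0.724 FPKM in CD38 KO, against 1.38 and 1.77 FPKM in WT (limma adjusted p = 0.0963). Adamts5 was at 2.69 and 2.66 FPKM in CD38 KO, against 2.5 FPKM in each WT library.

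Of the other proteoglycans 1 rose and 2 fell among 10 tested, or 30% beside 14.4% of all tested genes. Srgn, which encodes serglycin, a proteoglycan known from the granules of blood cells, fell 2.73-fold, to 5.78 and 4.77 FPKM in CD38 KO, against 14.9 and 13.9 FPKM in WT (log2 change -1.30, SE 0.099, limma adjusted p = 0.00107). Ogn, the small leucine-rich proteoglycan osteoglycin, fell to 12.6 and 15.2 FPKM in CD38 KO, against 19.1 and 18.1 FPKM in WT (log2 change -0.40, limma adjusted p = 0.0484). Tgfbr3, betaglycan, a membrane proteoglycan that presents TGF-beta, rose to 10.5 and 10.2 FPKM in CD38 KO, against 6.60 and 6.50 FPKM in WT (log2 change 0.59, limma adjusted p = 0.00469). The call of Srgn was kept in all 4 fits without 1 library. The call of Ogn ended in all 4, and that of Tgfbr3 ended when either CD38 KO library was left out (adjusted p of 0.0696 and 0.0604). Over all 5 lists together 5 rose and 9 fell among 79 tested genes, or 17.7% beside 14.4% of all tested genes, with a median log2 change of -0.03.

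**Figure D4:**
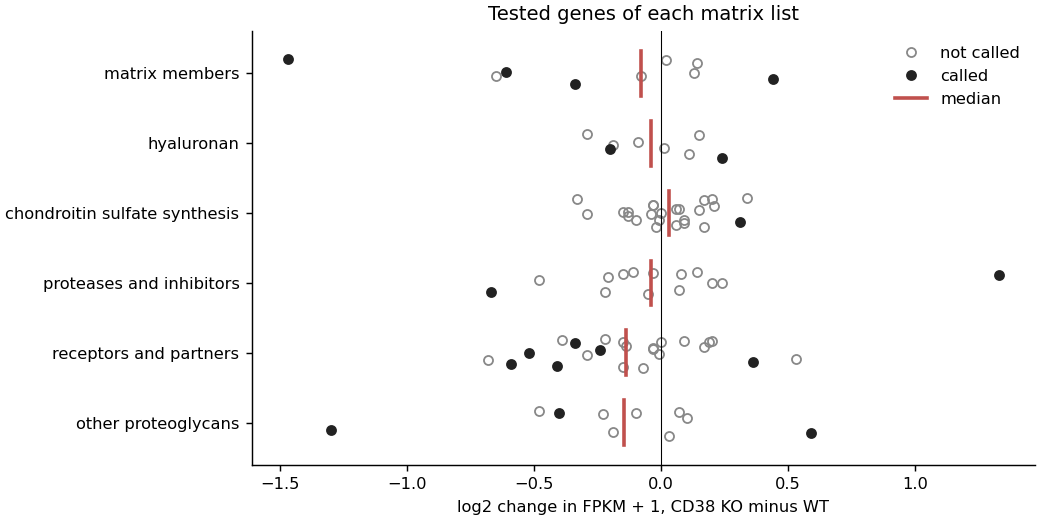
Log2 change in FPKM + 1, CD38 KO minus WT, of the tested members of the 10 matrix genes and of 5 other matrix lists; filled dots are called genes and red bars are list medians. Mmp9 at 1.33 and Srgn at -1.30 lie farthest from 0 among the 5 other lists.

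Markers of cells that make this matrix differed between the genotypes as well. The astrocyte list, with Gfap at 1198 and 1225 FPKM in CD38 KO, against 1389.7 and 1329.9 FPKM in WT, was expressed throughout. Gfap, the largest part of the list's sum, was not called (limma adjusted p = 0.0635). Of the 10 tested members of the list 2 rose and 6 fell, or 80.0% beside 14.4% of all tested genes. Those that rose were Aldh1l1 (log2 change 0.28, limma adjusted p = 0.0123) and Gja1 (0.24, 0.0194). Those that fell were Slc1a3, Aqp4, Aldoc, S100b, Sox9 and Fabp7. In the fits without 1 library 0 to 1 were higher and 1 to 4 lower, with the fewest, 0 and 1, without WT 2. The list had summed FPKM of 3196 and 3266 in CD38 KO, against 3794 and 3686 in WT. Of the oligodendrocyte precursor list 0 rose and 3 fell among 6 tested, beside 6.35% lower among all tested genes. The count of lower genes was 2 without WT 1 and 1 without each of the other libraries. Olig1 of this list was at 112 and 125 FPKM in CD38 KO, against 141 and 134 FPKM in WT. It was not called (limma adjusted p = 0.0774). Sox10 and Gpr17 were at most 0.126 and 0.00741 FPKM in any library and were not tested. The sum of this list, most of it Olig1, was 155 and 167 FPKM in CD38 KO, against 213 and 207 FPKM in WT. Pdgfra, its receptor marker, was at 1.60 and 1.24 FPKM in CD38 KO, against 3.37 and 4.84 FPKM in WT (log2 change -1.07, limma adjusted p = 0.0149), and 1 of the 4 fits without 1 library kept its call. C1ql1 was at 21.3 and 20.4 FPKM in CD38 KO, against 42.6 and 43.1 FPKM in WT (log2 change -1.01, limma adjusted p = 0.000243), a call kept in all 4 of these fits, while Neu4 was at 0 in all 4 libraries. The proteoglycan Cspg4, which marks the same cells, was at 3.77 and 3.35 FPKM in CD38 KO, against 3.84 and 3.90 FPKM in WT, and was not called. Tnr, Cspg5 and Ncan fell beside these markers, and the part of such cells in their changes was not tested.

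The remaining lists were of cells that the cultures could hold besides. Their counts stand beside 14.4% called among all tested genes, 8.0% higher and 6.35% lower in CD38 KO. Of 14 tested microglia and macrophage markers all 14 rose (12 in each fit without 1 library), with a median log2 change of 2.21 and sums of 381 and 353 FPKM in CD38 KO, against 96.3 and 92.0 FPKM in WT. P2ry12 of this list was under the filter, at 0.528 and 0.606 FPKM in CD38 KO, against 0.243 and 0.633 FPKM in WT. Vcan and Mmp9 rose beside the list, while Srgn, known from blood cells, fell (log2 change -1.30). The part of such cells in the changes of these 3 genes was not tested. Of the neuron list 1 rose and 1 fell among 4 tested (0 lower without CD38 KO 2), with sums of 114 in each CD38 KO library, against 119 and 127 in WT. Most of these neuron sums came from Stmn2 and Gad1, which moved in opposite directions. Stmn2 was at 54.8 and 56.1 FPKM in CD38 KO, against 30.7 and 28.8 FPKM in WT. Gad1 was at 46.1 and 41.7 FPKM in CD38 KO, against 71.4 and 81.5 FPKM in WT. Rbfox3, Snap25 and Syt1 were at most 0.12 FPKM in any library and were not tested. Of the mature oligodendrocyte list 0 of 3 tested genes were called by limma (1 at an unadjusted p under 0.05), and its marker Opalin was at 0 in all 4 libraries. Genes of dividing cells were called lower in 2 of 4 tested members, and in 0 of 4 in every fit without 1 library. Their list had sums of 10.0 and 10.9 FPKM in CD38 KO, against 18.5 and 18.3 FPKM in WT.

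**Figure D5:**
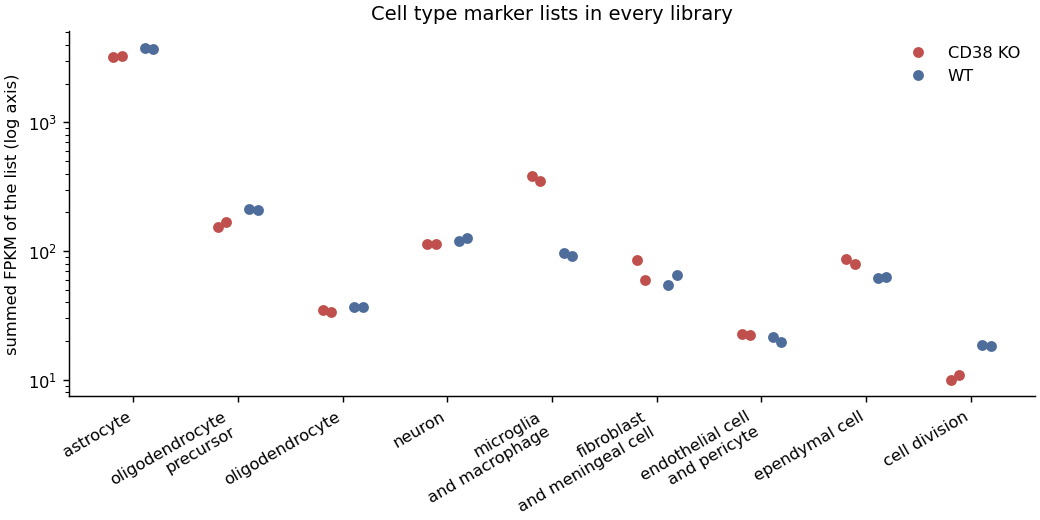
Summed FPKM, on a log axis, of 9 marker lists in CD38 KO (red, left of each pair) and WT libraries (blue); dots are libraries. The microglia and macrophage list is at 381 and 353 FPKM in CD38 KO against 96.3 and 92.0 FPKM in WT, and the oligodendrocyte precursor list at 155 and 167 FPKM against 213 and 207 FPKM.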

How the data were processed

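RNA of 4 libraries, 2 CD38 KO and 2 WT, was measured by sequencing stranded polyA libraries, per the labels' protocols. The deposited values are FPKM per Ensembl gene ID, per the file headers. Reads were handled with STAR 2.7.0f, Cufflinks 2.2.1 and bcl2fastq 2.17 against GRCm38, per the submitters' processing notes. Not given in the sources used here are the annotation release, the use of strand in counting and the scaling of libraries. Positions come from GENCODE M21 on GRCm38. The files give wider loci for Tnc and Vcan.

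Depth was estimated from the steps of low FPKM values in 17444 genes with a single transcript over 600 bases. Below 10 fragments, 91.8% to 92.4% of values lay within 0.1 of a whole number. Limits from fragments cover counting error only.

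All genes that averaged 1 FPKM or more were fitted with limma 3.58.1 (R 4.3.3) on log2(FPKM + 1), genotype as the only term, moderation with trend, and Benjamini-Hochberg adjustment at 0.05 over all 13064 tested genes. Fold changes in FPKM are ratios of means without the added 1, and log2 changes understate those of low genes. The fit was tested on simulated data. No count test was run, since the values are not counts. Shares were compared by exact permutation (scipy 1.17.1). All 10 members were named, and of each of 5 other lists the called genes of smallest p, up to 4 in each direction. Of the receptors and partners, 1 gene is counted but not reported here. The members and lists were chosen with earlier results of these data known.

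The 13 other settings tried were another added value (0.1 or 0.5), no filter or 5 FPKM, median-of-ratios or quantile scaling, moderation without trend or robust, replicate number as a block, and each library left out. A lone library was then assumed to vary like the other genotype. A crossed block was added after seeing the data.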

Additional observations from a re-analysis of the deposited data

How the results depend on the processing

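Tnr and Cspg5 were called lower under all 14 alternatives, with adjusted p of at most 0.0307 and 0.0348. Ncan and Vcan kept their direction under all 14 but their call under 7 each. Ncan lost it also with no filter (0.10), without trend (0.0611) and with the replicate block (0.0629), and Vcan with no filter (0.128), quantile normalization (0.0649) and the block (0.0934). Members called higher therefore numbered 0 with no filter, with quantile normalization and with the replicate block, and 0 in every fit without 1 library, where 2 were lower. Hapln1 passed in the crossed block alone (0.0416). Bcan, not called anywhere, had a log2 change of -0.01 without CD38 KO 2 and -0.03 without WT 1.

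Over all tested genes, 430 were higher and 312 lower with no filter, 610 and 427 with the replicate block, and 306 to 458 and 225 to 284 without 1 library. In the 5 other lists, 2 were higher and 3 lower with no filter, 2 and 4 with the replicate block, 3 were higher without trend, and 1 to 2 were higher and 3 to 4 lower without 1 library. Quantile normalization shifted the median of all genes by -0.02. Same-numbered libraries deviated with a correlation of -0.16, and the labels do not say that numbers pair them. With the numbers crossed, 1102 genes were called higher and 859 lower, and 15 lower in the 5 lists. The cause of these moves was not tested, except that fits without 1 library have fewer samples.

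Without 1 library, CD38 KO minus WT ranged as follows, in percentage points of lectican FPKM: Ncan -8.31 to -4.80, Bcan 3.75 to 7.41, Vcan 0.907 to 1.06 and Acan -0.00725 to -0.00134. Summed lectican FPKM differed by -35.7 to -20.7, the sum of all 10 genes by -76.8 to -56.3 and the Tnr share of the tenascins by -15.5 to -12.9 points. The ratios differed by 8.44 to 9.68 for Tnc over Tnr, 0.882 to 3.24 for Vcan over Hapln1, -9.88 to -5.64 for Ncan over Hapln4, -0.363 to -0.182 for Ncan over Bcan, and -1.74 to -1.46 for Ptn plus Mdk over Ptprz1. Acan, at 0 to 4 fragments, is limited by depth.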

Other observations

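A protease of the lectican-cutting ADAMTS group that was too low to be tested, Adamts20, was at 0.134 and 0.0958 FPKM in CD38 KO, against 0.369 and 0.487 FPKM in WT. Itgb3, the integrin beta 3 chain, is in the list of receptors and partners. It was at 0.135 and 0.139 FPKM in CD38 KO, against 0.0534 and 0.0504 FPKM in WT. The libraries of the genotypes did not overlap in either gene, as in 59.9% of all tested genes. Both genes were under the filter and were picked after their values were seen. Ependymal markers mark the ciliated lining cells of the ventricles. Of their 5 tested members 3 rose and 1 fell, beside 8.0% higher and 6.35% lower among all tested genes. In the fits without 1 library 1 to 3 were higher, 1 of them when either CD38 KO library was left out, and 0 were lower in all 4. The list had sums of 86.4 and 79.1 FPKM in CD38 KO, against 61.7 and 62.8 FPKM in WT.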
